A study of Mus musculus with 2 samples.

Results

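Small nuclear RNA (snRNA) genes were examined in total RNA profiles of mouse hippocampus, and the genes described here are those that both libraries measured. A gene was taken when all of its transcripts had the snRNA type in the deposited transcript names and its expected count, a read number estimated by the authors' counting program and often not whole, was at least 10 in both libraries. This left 26 of the 1383 snRNA genes of the annotation, among 55536 genes in all. The genes were thus chosen by their expected counts, and their levels are given as a description with no test. The libraries came from hippocampus of female B6CASTF1/J mice, a first-generation cross between the C57BL/6J and CAST/EiJ strains, aged 18 to 20 months. Each was made from 300 ng of RNA with ribosomal RNA reduced and ERCC spike-in RNAs added, and the labels name no treatment or genetic change. The labels form 1 group of 2 libraries, called replicate 1 and replicate 2, with separate biosample labels but the same donor label, so the SD over both (n = 2) covers only the spread between these libraries, which may be technical.

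An snRNA forms the core of a small nuclear ribonucleoprotein (snRNP). In the major spliceosome, U1 base-pairs with the 5′ splice site of an intron, U2 with its branch site, and U4, U5 and U6 join as a preformed particle, while U11, U12, U4atac and U6atac take these places in the minor spliceosome, which removes a rare class of introns. U7 serves histone mRNA processing. Most snRNAs are made by RNA polymerase II from short intronless genes that occur as many near-identical copies, receive a ring of Sm proteins at a U-rich site, and are needed in neurons as in other cells.

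Most of the measured snRNA signal was U2 and U1. The 10 U2 genes held 59.6% ± 0.465 (SD, n = 2) of the counts of the 26 genes, and the 12 U1 genes held 33.6% ± 0.0426. A further 6.74% ± 0.403 lay in 3 genes whose nearest gene with an Rnu symbol was under 80% identical, and 0.0910% ± 0.0199 lay in Rnu12, the U12 gene. Corrected for effective length, as shares of the 26 genes' TPM, U2 held 48.8% ± 0.585, U1 38.9% ± 0.113 and the 3 other genes 12.2% ± 0.670. A gene was put in a class when its sequence was at least 80% identical over its whole length to a gene with an Rnu symbol. The 3 genes without a class were Gm24265, Gm24407 and Gm25541. Their sequences are, from textbook knowledge and not by that rule, those of U4 for the first pair and U6atac for the third.

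Sequences are shown first, since the values turn on how few bases separate the genes. They are the GENCODE M21 transcripts on mm10, written 5′ to 3′ with T for U. In the reference sequences of U2 and U1, capitals mark the stretch that pairs with the intron (GTAGTA in U2, ACTTACCTG in U1) and the Sm site core (ATTTTTG in U2, AATTTGTGG in U1).
Rnu2-10: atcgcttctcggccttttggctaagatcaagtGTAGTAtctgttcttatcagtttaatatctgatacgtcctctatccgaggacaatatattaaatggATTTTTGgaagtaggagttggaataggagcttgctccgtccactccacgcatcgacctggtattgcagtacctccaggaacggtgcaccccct
Rnu1a1: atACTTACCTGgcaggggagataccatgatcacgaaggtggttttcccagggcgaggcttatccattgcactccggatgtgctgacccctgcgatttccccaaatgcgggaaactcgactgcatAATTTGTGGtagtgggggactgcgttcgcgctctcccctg
Rnu2-10 lies at chr11:101658238-101658428 on the plus strand, and Rnu1a1 at chr11:87422867-87423030 on the plus strand, in an intron of Tex14.

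A pair of further U2 sequences is shown because the division of reads between them turns on 1 base, and capitals mark where they differ from Rnu2-10. Gm23444 is at chr11:83271498-83271688 (plus strand), and Gm24497 at chr1:72244213-72244403 (plus strand), in an intron of the long noncoding RNA gene D230017M19Rik.
Gm23444: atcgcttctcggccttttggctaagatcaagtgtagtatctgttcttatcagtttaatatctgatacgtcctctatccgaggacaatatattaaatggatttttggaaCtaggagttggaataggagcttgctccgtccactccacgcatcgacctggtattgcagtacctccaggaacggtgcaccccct
Gm24497: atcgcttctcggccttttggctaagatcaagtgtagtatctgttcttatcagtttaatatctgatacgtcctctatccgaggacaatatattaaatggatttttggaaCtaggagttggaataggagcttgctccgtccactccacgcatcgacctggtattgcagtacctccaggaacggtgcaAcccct
Counting positions from 1 at the 5′ end, Gm23444 carries G109C, and Gm24497 carries G109C and C186A.

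Among U1 genes, Gm22513 at chr12:54696782-54696945 (plus strand) and Gm23238 at chr19:18732741-18732904 (plus strand) are shown because each had reads of its own. Capitals mark the differences from Rnu1a1.
Gm22513: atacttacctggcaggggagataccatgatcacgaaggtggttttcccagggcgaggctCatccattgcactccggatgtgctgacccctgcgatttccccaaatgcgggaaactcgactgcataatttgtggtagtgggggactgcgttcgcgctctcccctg
Gm23238: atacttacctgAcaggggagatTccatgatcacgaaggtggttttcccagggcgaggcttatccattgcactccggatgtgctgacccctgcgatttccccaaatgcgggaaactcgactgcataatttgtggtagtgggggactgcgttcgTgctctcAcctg
The difference in Gm22513 is T60C. Those in Gm23238 are G12A, A23T, C153T and C160A.

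The remaining sequences show the less abundant kinds. Gm24265 is at chr5:115489459-115489599 (plus strand) with the Sm site core in capitals. Gm24407, on the same strand at chr5:115490254-115490394, has its differences from Gm24265 in capitals (G88A and C99A). Rnu12 is at chr15:83149644-83149794 (plus strand) with the Sm site core in capitals. Gm22614, a U1b-like gene at chr3:96488729-96488893 (plus strand), has the pairing stretch in capitals, and Gm25541 at chr2:27539805-27539930 (minus strand) has none marked.
Gm24265: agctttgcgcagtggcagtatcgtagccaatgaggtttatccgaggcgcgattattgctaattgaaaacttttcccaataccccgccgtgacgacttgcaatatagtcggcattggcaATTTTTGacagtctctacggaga
Gm24407: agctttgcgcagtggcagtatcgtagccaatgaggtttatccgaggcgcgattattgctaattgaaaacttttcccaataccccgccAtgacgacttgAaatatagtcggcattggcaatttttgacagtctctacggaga
Gm22614: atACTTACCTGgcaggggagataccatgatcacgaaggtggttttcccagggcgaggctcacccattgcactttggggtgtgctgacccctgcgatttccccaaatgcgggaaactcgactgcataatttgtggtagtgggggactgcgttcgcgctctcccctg
Rnu12: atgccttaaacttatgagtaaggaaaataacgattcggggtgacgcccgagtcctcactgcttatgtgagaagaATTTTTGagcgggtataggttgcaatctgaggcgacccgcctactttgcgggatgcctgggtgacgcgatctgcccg
Gm25541: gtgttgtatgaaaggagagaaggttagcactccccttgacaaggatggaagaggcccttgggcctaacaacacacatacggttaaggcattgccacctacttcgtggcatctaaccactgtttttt

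Each class was searched for the sense letters of its functional stretches. Classes were set by sequence identity, so letters shared within a class follow largely from that rule and are given as a description. The shares of annotated genes pool all classes, with 503 of the 1383 genes U6-like. No member was of the U5 or U6 class. All 12 U1 members held ACTTACCTG from position 3, against 3.98% of the 1383 annotated snRNA genes, and all 12 held AATTTGTGG from position 125 or 126, against 4.70%. GTAGTA stood at position 33 in all 10 U2 members and in 3.69% of annotated genes. ATTTTTG was found in the 10 U2 members at position 99, in Rnu12 at 75 and in Gm24265 and Gm24407 at 119, and in 3.33% of annotated genes. The U5 loop letters GCCTTTTAC and the U6 letters ACAGAGA were in none of the 26, and in 0.651% and 42.2% of annotated genes. AATTTGTGG was added to the search after the sequences had been seen.

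Gene-assigned expected counts, rounded to whole numbers, summed to 35358099 in replicate 1 and 36307276 in replicate 2, and the ERCC spike-ins to 175174 and 178579. The 26 snRNA genes took 45514 counts in replicate 1 and 48529 in replicate 2. That was 0.129% of gene-assigned counts in replicate 1, with an exact Clopper-Pearson 95% interval of 0.128 to 0.130, and 0.134% in replicate 2, with one of 0.132 to 0.135. These intervals and all those below cover counting error only. In TPM, the deposited abundance corrected for effective length, the same genes took 2.36% and 2.37% of the total. Effective length in these tables is the annotated length minus 99, which leaves 92 of 191 bases for U2 and 65 of 164 for U1a, so per-length values rise steeply for short genes. All 9 markers of hippocampal neurons and glia that were checked (such as Slc17a7, Prox1 and Mbp) were between 31.9 and 1333 TPM in both libraries. In this bulk tissue, a lower level from fewer cells of a type cannot be told apart from less RNA per cell.

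Of the 11 annotated snRNA genes with an Rnu symbol, 3 were among the 26, beside 26 of all 1383 snRNA genes. Rnu1a1, Rnu2-10 and Rnu12 had 4628 counts between them in replicate 1, against 4965 in replicate 2, and the 23 genes with Gm symbols held 40886 and 43564. The share of the Rnu-named genes was 10.2% ± 0.0439 (SD, n = 2). Rnu1a1 and Rnu2-10 were given the same values as Gm copies of identical sequence, so this share counts symbols and not different RNAs. The plot of counts by gene and library shows all 26 genes.

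**Figure D1:**
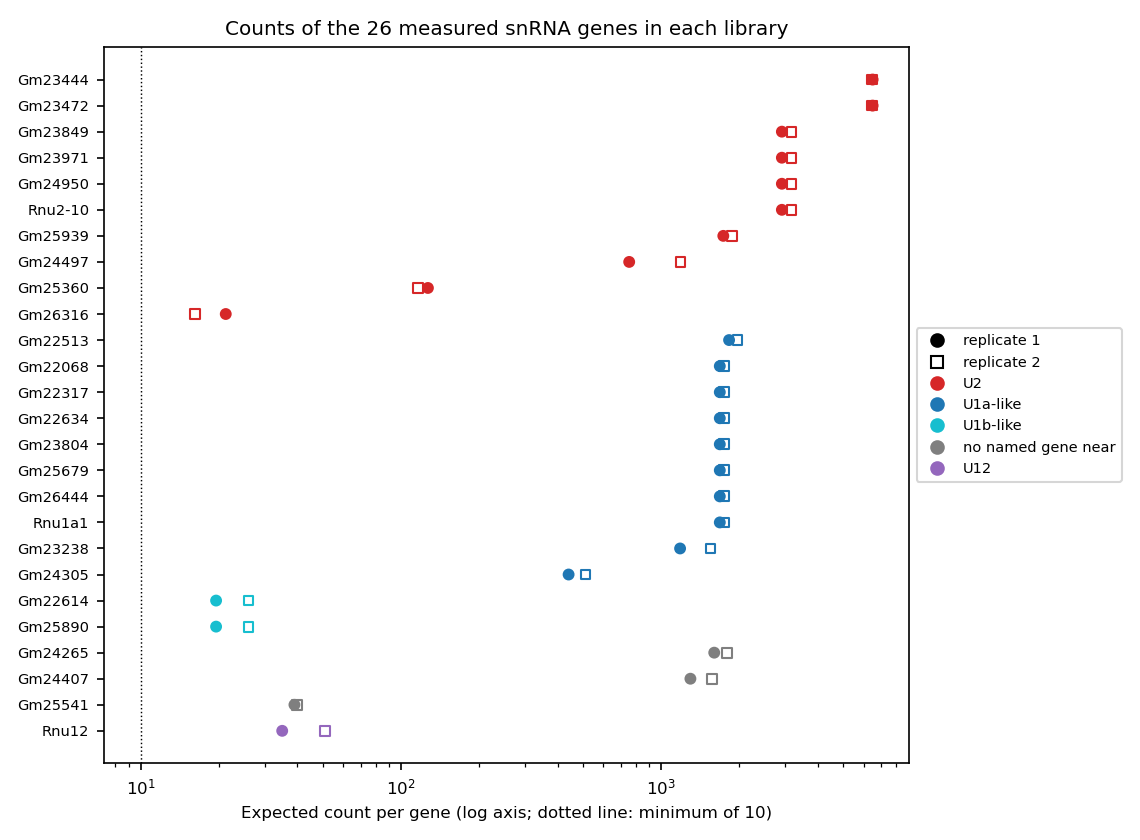
Expected count (log axis) of each of the 26 measured snRNA genes in replicate 1 (filled circles) and replicate 2 (open squares), coloured by class, with the minimum of 10 as a dotted line. Genes run from 16.1 counts (Gm26316) to 6500 (Gm23444 and Gm23472), and the 7 identical U1a genes stand at the same level.

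Identical values marked identical sequences. Of the 26 genes, 15 fell into 4 groups whose expected counts and TPM were equal to the last deposited digit in both libraries. The same 4 groups came out when the genes were sorted by sequence, and no gene outside them shared its sequence or its values with another, so the 26 genes represented 15 distinct sequences. These equal values are a division of 1 pool of reads among copies, and a copy's own level is not measured by them.

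The largest group was U1a. Rnu1a1, Gm22068, Gm22317, Gm22634, Gm23804, Gm25679 and Gm26444 each had 1681 counts in replicate 1 and 1746 in replicate 2, a mean of 1713 ± 45.4 (SD, n = 2). Rnu1a1 and Gm22068 lie together in 4.01 kb of chromosome 11, within an intron of Tex14, and the other 5 lie in a cluster of 7 measured U1 genes that spans 41.8 kb of chromosome 12. Together the 7 copies held 11769 counts in replicate 1 and 12219 in replicate 2, a scaled fold of 1.01 (95% counting interval 0.988 to 1.04).

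Among U2 genes, Rnu2-10, Gm23849, Gm23971 and Gm24950 each had 2912 counts in replicate 1 and 3169 in replicate 2 (3040 ± 181). With Gm26316 they lie within 53.6 kb of chromosome 11. Gm23444 on chromosome 11 and Gm23472 on chromosome 1 each had 6500 and 6450 counts (6475 ± 35.1), the highest of all 26. The U1b-like genes Gm22614 and Gm25890, in 2.34 kb of chromosome 3, each had 19.5 and 26 counts.

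The posterior mean count, a second deposited estimate that averages over possible assignments of each read, was not equal among identical copies. Over the 7 U1a copies it ran from 1304 to 1981 in replicate 1 and from 1361 to 2205 in replicate 2, and the order of the copies changed between libraries. Gm26444 had 1981 in replicate 1 and 1361 in replicate 2, while Gm22068 had 1341 and 1835. The deposited posterior SD was 19.4% to 93.2% of the posterior mean in the 15 genes with shared sequence. It was at most 0.2498% in the 7 genes for which at least 50% of the 100-base windows occur in no other transcript (Gm22513, Gm25939, Gm24265, Gm24407, Gm25360, Rnu12 and Gm25541). The other 4 genes with their own sequence, Gm23238, Gm24305, Gm24497 and Gm26316, have fewer such windows and lay between 7.83% and 41.8%. A window of 100 bases is the read length that the effective lengths imply.

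**Figure D2:**
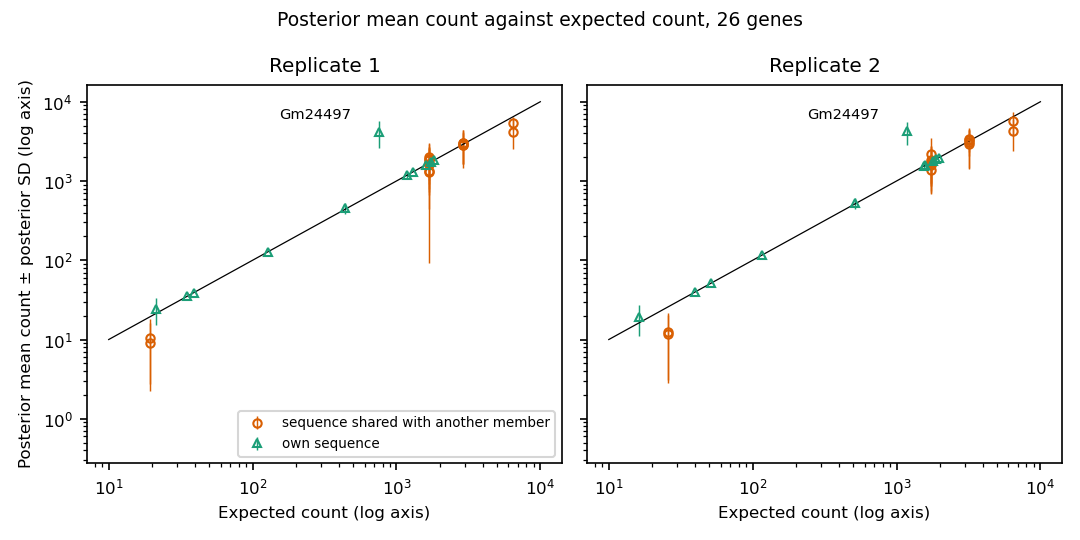
Posterior mean count with the posterior SD as bars, against expected count (both log axes), for the 26 genes in each library, with genes of shared sequence as circles, genes with their own sequence as triangles and the line of equality. Copies of 1 sequence line up at a single expected count and spread vertically, and Gm24497 lies above the line in both libraries.

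Gm24497 showed the largest gap between the estimates. Its expected count was 754 in replicate 1 and 1187 in replicate 2, and its posterior mean count was 4153 and 4228. It differs from Gm23444 and Gm23472 by C186A alone, and only 6 of its 92 windows contain that base. The expected counts of these 3 genes together were 13754 and 14087, equal to the posterior sum within 1 count, so the estimates differ in how that pool was divided. Gm24497 was given 5.48% of the pool in replicate 1 and 8.43% in replicate 2 by expected count, and 30.2% and 30.0% by posterior mean count.

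Some snRNA genes that are not among the 26 share windows with them. There were 10 such genes, all with at most 1 expected count. Gm24924 and Gm26244, U1a-like genes of 164 bases, share 60 and 52 windows with measured genes and were listed at 0 expected counts in both libraries. Their posterior mean counts were 71.9 and 52.7 for Gm24924 and 40.3 and 50.4 for Gm26244. For these copies the deposited estimates thus disagree on whether any read was assigned.

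U2 signal came from 2 forms that differ at position 109. The form with G109 was annotated in 5 measured genes (Rnu2-10, Gm23849, Gm23971, Gm24950 and Gm26316) and held 42.8% of U2 counts in replicate 1 and 44.1% in replicate 2. The C form, in Gm23444, Gm23472, Gm24497, Gm25360 and Gm25939, held 57.2% in replicate 1, with an exact 95% interval of 56.6 to 57.8, and 55.9% in replicate 2, with one of 55.3 to 56.5. This gave a mean of 56.6% ± 0.945 (SD, n = 2). Position 109 is covered by 83 of the 92 windows, and the posterior mean counts gave the same shares. The G-form genes all lie in the chromosome 11 cluster. Of the C-form genes, 4 lie within 29.0 kb of chromosome 1 and Gm23444 lies alone on chromosome 11. The annotation holds the C57BL/6J sequence only, and which form the CAST/EiJ copies carry was not tested.

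Among U2 genes with sequences of their own, Gm25939 (T69C, C78T and G109C against Rnu2-10) had 1734 counts in replicate 1 and 1879 in replicate 2, and 78 of its 92 windows are found in no other transcript. Gm25360 (C78T, A95G, G109C and C154T) had 127 and 116. Gm26316 (C170T) had 21.2 and 16.1, the lowest of the 26. Gm25939 thus stood over 10-fold above Gm25360 in both libraries, and both genes lie in the chromosome 1 cluster.

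U1 signal came almost wholly from the U1a form. In mouse, U1a is the form of adult tissue, and U1b is known from embryonic and stem cells. The 10 U1a-like members held 15219 counts in replicate 1 and 16246 in replicate 2. The U1b-like members Gm22614 and Gm25890 held 39 and 52. Over all 54 annotated U1 genes, U1b-like genes had 0.282% of the counts in replicate 1, with an exact 95% interval of 0.204 to 0.379, and 0.325% in replicate 2, with one of 0.244 to 0.425. Rnu1b1, Rnu1b2 and Rnu1b6 were listed at 0 expected counts, with posterior mean counts between 2.35 and 4.80. Rnu1b1 and Rnu1b2 are identical to each other and differ from Gm22614 by 1 base, and each shares 33 of its 66 windows with the measured genes.

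Gm22513, whose T60C gives it 60 of 65 windows of its own, had 1825 counts in replicate 1 and 1968 in replicate 2. These lay above the equal share given to each copy of the U1a group, which is no level of a copy. By posterior mean count the copies ran from 1304 to 1981 in replicate 1 and from 1361 to 2205 in replicate 2, around Gm22513 at 1825 and 1968. Gm24305 (A26G against Rnu1a1) had 441 and 512. Gm23238, alone on chromosome 19, had 1183 and 1547. It overlaps an exon of AC134906.1 on the opposite strand, a gene listed at 0 TPM.

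The U1 to U2 ratio was 0.563 ± 0.00511 (SD, n = 2) in counts, 0.655 ± 0.00595 per base of annotated length and 0.797 ± 0.00723 in TPM. In TPM the U2 members summed to 11624 in replicate 1 and 11468 in replicate 2, and the U1 members to 9200 and 9194. U2 was above U1 in both libraries on each of these scales.

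The U4 genes Gm24265 and Gm24407 lie within 0.936 kb of chromosome 5, and all of their windows are found in no other transcript. U4 pairs with U6 and holds it inactive until the spliceosome is activated. Gm24265 had 1601 counts in replicate 1 and 1797 in replicate 2 (1699 ± 139, SD, n = 2), and Gm24407 had 1296 and 1570 (1433 ± 193). Gm24265 took 55.2% of their sum in replicate 1, with an exact 95% interval of 53.4 to 57.1, and 53.4% in replicate 2, with one of 51.7 to 55.1, so the intervals overlap. Their sum in TPM was 2704 and 2940.

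Minor spliceosome RNAs were counted at low levels. Rnu12, which pairs with the branch site of minor introns, had 35 counts in replicate 1 and 51 in replicate 2, or 26.4 and 36.0 TPM. Gm25541, the U6atac gene by its sequence, had 39 and 40 counts, or 56.6 and 54.3 TPM. Rnu11, which recognises the 5′ splice site of minor introns, had 4 and 3 counts and did not pass the minimum. Per effective base, Rnu12 was at 0.00227 of U2 in replicate 1 and 0.00314 in replicate 2.

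The minimum of 10 fell in a wide gap. The members with the fewest counts in their lower library were Gm26316 (16.1), Gm22614 and Gm25890 (19.5 each). The nearest genes outside were Rnu11 with a lower count of 3, Gm25813 with 2 in each library and Gm22973 with 2 and 9. No snRNA gene had a lower count between these levels.

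All measured snRNA genes were at least 126 bases long. All 193 snRNA genes shorter than 100 bases had an effective length of 0 and a count of 0, among them Rnu7 and all 12 U7-like genes. Of the 900 genes of 100 to 125 bases, none was among the 26 and the highest count was 1. This range holds most of the 503 U6-like genes, with a median length of 107 and a median effective length of 8, of which 501 were at 0 in both libraries, and the 10 U5-like genes, of 116 or 117 bases, with 1 count in all in each library. The 26 members were among the 290 genes of 126 bases or more, of which 227 were at 0 in both libraries. U5 and U6 are core spliceosomal RNAs, and no level of them was read from these values. Why the values were low was not tested.

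**Figure D3:**
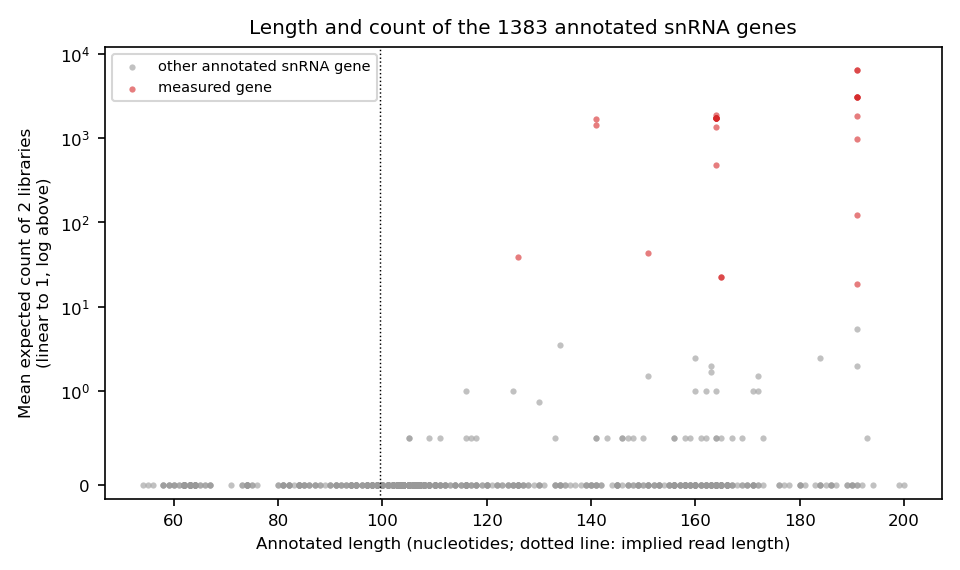
Mean expected count of both libraries (linear to 1, log above) against annotated length for the 1383 snRNA genes, with measured genes in red and the implied read length as a dotted line. All 26 measured genes are at least 126 bases long, and the genes of 100 to 125 bases stay at or below 1 count.

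In the second deposited set of transcript tables, whose columns follow the kallisto layout, all 1383 snRNA genes were at 0 in both libraries. The same tables were at 0 for all 55 other genes of 126 to 191 bases that had at least 10 expected counts in both libraries, 35 of them snoRNAs. The shortest transcript with any count there was 275 bases long in replicate 1 and 269 in replicate 2. Rn7sk, an abundant small RNA of 331 bases, had 337357 and 357247 expected counts in the RSEM-layout tables and estimated counts of 0 and 1 in the kallisto layout. The 0 values of the snRNA genes in that layout were thus shared with other short genes, and nothing was read from them about snRNA levels.

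The replicates were compared by gene and by distinct sequence. No member was over 2-fold apart after TMM scaling, where 1.15% of the 17838 genes with at least 10 counts in both libraries were. Gm24497 alone was over 1.5-fold apart, against 5.26% of all genes, and 6 of 26 members were over 1.2-fold apart, against 19.2%. The summed counts of the 26 genes were 1.04-fold higher in replicate 2 (95% counting interval 1.03 to 1.05). The median log2 ratio, replicate 2 minus replicate 1, was 0.08 over the 26 genes, and the median absolute log2 ratio was 0.09, the same as over all genes. Because 15 genes repeat 4 sequences, the counts of members above repeat the ratio of a shared pool for each copy. Over the 15 distinct sequences, which count each pool once, the median absolute log2 ratio was 0.16, beside 0.09 for all genes. This median is the ratio of Gm25360, with 127 and 116 counts and a counting interval of its fold of 0.687 to 1.16. Of the larger ratios, those of Rnu12, Gm26316 and the Gm22614 sequence rest on at most 52 counts in a library. That of Gm24497 turns on how a pool was divided, while Gm24305, Gm24407 and Gm23238 had more counts. The sets were not matched for depth, so no difference in spread was read from these medians.

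In direction, 22 of the 26 members were higher in replicate 2 with TMM scaling, where 49.8% of all genes were. In deposited TPM 14 of 26 members and 33.7% of all genes were higher in replicate 2, and the median log2 ratio of all genes was -0.06. The members' median lay 0.08 above that of all genes on the log2 scale with either scaling. A change of scaling moves all genes nearly alike, so it could hardly change this gap. By distinct sequence 12 of 15 were higher in replicate 2. The 95% counting interval of the fold lay above 1 for 5 sequences, below 1 for 1 and held 1 for 9. Over all 17838 genes it lay above 1 for 8.63% and below 1 for 8.85%, and it narrows with the count, so these shares depend on depth. The 5 were Gm24497 at 1.54-fold (1.40 to 1.69), Gm23238 at 1.28-fold (1.18 to 1.38), Gm24407 at 1.18-fold (1.10 to 1.27), Gm24265 at 1.10-fold (1.02 to 1.17) and the Rnu2-10 sequence at 1.06-fold (1.04 to 1.09). The sequence of Gm23444 and Gm23472 stood lower in replicate 2 at 0.969-fold (0.946 to 0.993).

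By expected count Gm24497 and its near-copies lay on opposite sides of 1. The pool of Gm23444, Gm23472 and Gm24497 had a fold of 1.00 (0.977 to 1.02), and by posterior mean count Gm24497 itself was at 0.994-fold. For Gm23238 the posterior mean counts were 1178 and 1544 with posterior SDs of 102 and 121, so its difference between the libraries was larger than those SDs. Gm24265 and Gm24407 were both higher in replicate 2, and their sum was 1.13-fold higher (1.08 to 1.19). The least abundant sequences had wide intervals, such as 0.907 to 2.25 for Rnu12 and 0.687 to 1.16 for Gm25360, and a difference of the size seen in Gm23238 was not detectable at their depth.

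**Figure D4:**
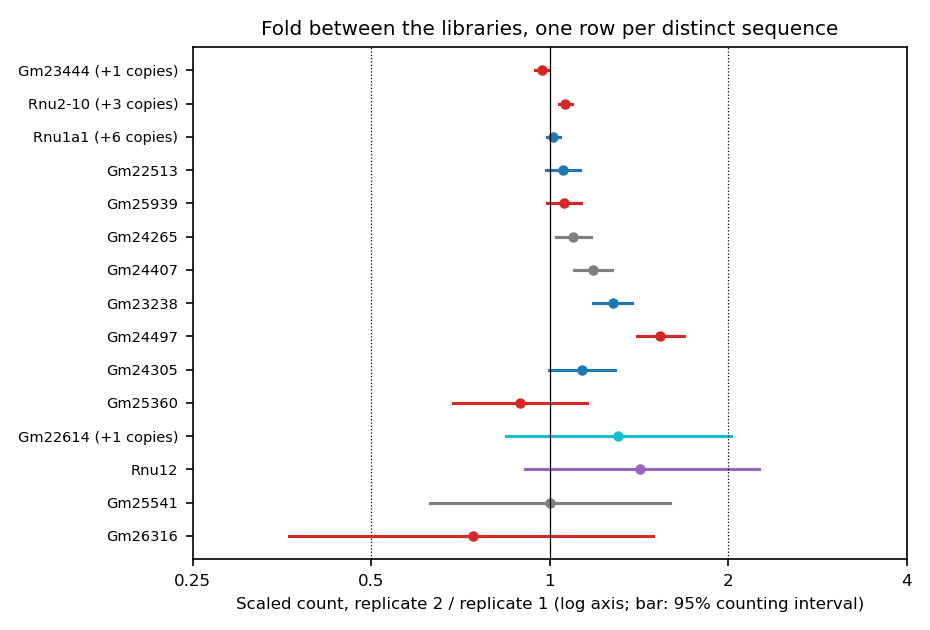
Fold of scaled counts, replicate 2 over replicate 1, on a log axis for each of the 15 distinct sequences, with 95% counting intervals as bars, a solid line at 1 and dotted lines at 2-fold. The 3 sequences with the most counts lie between 0.969 and 1.06, and Gm24497 stands highest at 1.54.

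Of the 26 genes, 7 lay within another annotated gene, 6 of them on the same strand. Rnu1a1 and Gm22068 are intronic in Tex14, Gm23849 in Rdm1, and Gm23472, Gm24497 and Gm25939 in D230017M19Rik. Gm25939, the member in D230017M19Rik with the most windows of its own, stood at 739 TPM in replicate 1, and its host at 1.71. Tex14 was at 0.060 TPM and Rdm1 at 4.83 in replicate 1, and the level of the copies within them is not known, since they hold equal shares of a pool.

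The protein genes that build and produce snRNPs were read from a list of 91 genes in 10 groups. All 91 had at least 10 counts in both libraries. None was over 2-fold apart (1.15% of all genes) and none over 1.5-fold apart (5.26% of all genes). Of the 14447 protein-coding genes with at least 10 counts, 121 were over 2-fold and 496 over 1.5-fold apart. The median log2 ratio of the 91 listed genes was under 0.01 in size. Of the 91, 45 were higher in replicate 2, beside 7313 of the 14447 protein-coding genes. The median TPM of the 91 was 15.2 in replicate 1 and 14.3 in replicate 2, beside 11.9 and 11.3 for all 14447 protein-coding genes. Group medians ran from 7.51 ± 0.810 TPM (SD, n = 2) for the U7 snRNP to 35.0 ± 2.35 for the U1 snRNP proteins.

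Among proteins of the U1 snRNP, Snrnp70, which binds the first stem-loop of U1, was highest at 147 and 133 TPM, and Snrpc lowest at 20.9 and 19.9. In the U2 group Sf3b2 was highest at 88.3 and 80.3 TPM and Sf3b5 lowest at 4.14 and 3.97. The Sm core, the ring shared by most snRNAs, had the widest range. Snrpn, the Sm protein known for its expression in brain, stood at 330 and 323 TPM, over its paralogue Snrpb at 45.7 and 42.9, and Snrpf was lowest at 4.24 and 5.53.

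In the Lsm ring of U6, Lsm4 was highest (28.9 and 26.2 TPM) and Lsm5 lowest (5.73 and 6.90). Of the U4/U6.U5 proteins, Prpf8, at the catalytic centre, was highest at 53.8 and 52.0 TPM and Prpf4 lowest at 5.17 and 5.10. Among minor spliceosome proteins Zcrb1 reached 29.9 and 27.9 TPM and Snrnp48 8.75 and 7.54. For the U7 snRNP, Lsm11 had 9.85 and 7.61 TPM and Lsm10 6.31 and 6.26. The proteins of U5, U6 and U7 were thus counted in libraries whose tables gave these RNAs few or no counts.

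For snRNA transcription, Ice1 of the little elongation complex was highest at 23.8 and 24.9 TPM and Ice2 lowest at 4.60 and 4.29. Of the 14 genes of 3′ end formation, all Integrator subunits, Ints1 had 36.1 and 37.8 TPM and Ints12 4.28 and 4.25. In assembly, capping and export, Strap, a partner of the survival motor neuron complex, had 47.3 and 46.9 TPM and Gemin6, a subunit of that complex, 2.46 and 1.91. These TPM values are from genes far longer than the snRNAs, and no ratio between protein and RNA levels was taken.

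**Figure D5:**
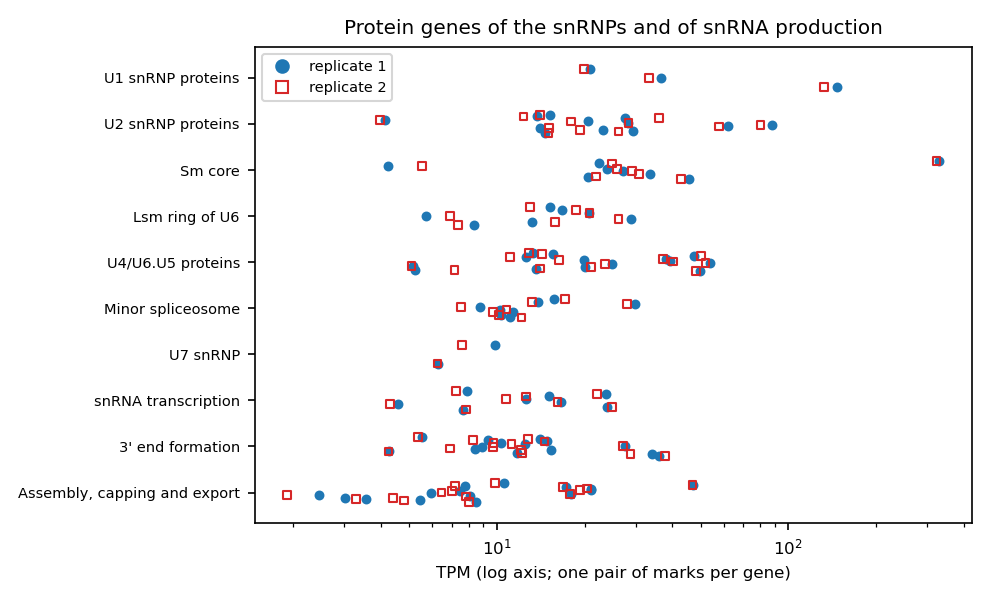
TPM (log axis) of the 91 protein genes by group, with 1 pair of marks per gene for replicate 1 (filled circles) and replicate 2 (open squares). Snrpn lies highest at 330 and 323 TPM, and the paired marks stay close for most genes.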

How the data were processed

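Total RNA from hippocampus was profiled in 2 libraries. The gene tables deposited by the authors hold expected counts (estimated counts that need not be whole), posterior mean counts with their SD, TPM and FPKM, in the RSEM layout per the file headers. Transcript tables in the kallisto layout, per the file headers, hold estimated counts and TPM. Per the deposited notes, reads were set on mm10 with GENCODE M21, and the supplied transcripts and gene models are of the same release. For the aligner, program versions and strand setting nothing was given in the sources used here, so reads of overlapping genes may have been shared.

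Expected counts were rounded for scaling with TMM in edgeR 4.0.16 under R 4.3.3. The scaling and the 2-fold rule were run on simulated libraries with 4-fold changes set in 200 genes. Of these, 100% were called in the right direction, and 89 of 17682 unchanged genes were over 2-fold apart. Each gene was drawn separately, with no reads shared among copies. The simulation thus does not bear on the division of reads or on smaller folds. Folds are replicate 2 over replicate 1 of scaled counts, with exact 95% binomial intervals, and log2 ratios carry a prior count of 2. With 1 group no p-value was computed. Sequences were compared over their whole length with edlib 1.3.9.post1, and windows of 100 bases were searched in all transcripts. Python 3.11.15, pandas 2.3.3, numpy 2.4.6, scipy 1.17.1 and matplotlib 3.10.9 were used. Alternatives were DESeq2 1.42.0 size factors, totals, spike-in totals, other minimums and quantities, and each library alone.

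The genes and lists were chosen with earlier results of these data known. Named were all Rnu genes, the 10 members of highest count, members apart between libraries, groups of identical values, genes next to the minimum, members within other genes, and the highest and lowest gene of each protein group. The remaining members were added so that all 26 are described.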

Additional observations from a re-analysis of the deposited data

How the results depend on the processing

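The number of measured genes was 21 to 27 under other minimums, by posterior mean count and in each library alone, and 0 in the kallisto-layout tables, where their share of counts was 0% too. By posterior mean count Gm24924 and Gm26244 entered and Gm25890 left. Of the 15 genes with identical values, 0 had equal posterior mean counts. The Rnu-named share was 9.65% in TPM, 10.1% by posterior mean count and 10.03% per annotated base, and 10.2% in either library alone (10.17 to 10.23). The members' share was 2.39% of the TPM summed over the 55536 genes alone, beside 2.36% and 2.37% of the full TPM total of 1000000. The median log2 ratio was 0.016 in TPM, 0.11 by posterior mean count and 0.10 as a mean. At 1.5-fold 1 member was apart, and at 2-fold none was under each of 9 other settings. Without Gm24497 the C form held 55.0% of U2 counts. Chosen after seeing the data were the alternatives for this share and for U1b. For single genes, all 26 kept their ratio within its counting interval under the 3 other scalings, while 12 left it by posterior mean count. In deposited TPM Gm23444 and Gm23472 left it. The direction was kept by 18 of 26 genes in TPM and by 19 of 26 by posterior mean count. No paired analysis was possible because there is 1 group only. No kallisto-layout ratio, Rnu share or identity of values could be had, since all values there are 0. Depth limits the 4 sequences under 100 counts most.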

Other observations

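Outside the 26 genes, 46 annotated snRNA genes had some expected count. They held 47.4 counts in replicate 1 and 42.7 in replicate 2, and no value exceeded 9. Of these genes, 14 had a count in both libraries and 32 in 1 only. Gm23692, of no class by its sequence, had 5 counts in replicate 1 and 0 in replicate 2.

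In the comparison of the deposited layouts by length, genes with at least 10 expected counts in both libraries reached 10 in both libraries of the kallisto layout in 0 of 89 cases under 200 bases, 2 of 55 from 200 to under 300, 33 of 112 from 300 to under 400, 121 of 207 from 400 to under 500, 89.8% of 1543 up to 1000, and 99.1% of 15823 genes of 1000 bases or more. The share rose with every step in length.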
